A study of Homo sapiens with 6 samples.

Results

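LIX1L and 7 genes around it in band 1q21.1 of chromosome 1 (POLR3GL, RBM8A, PIAS3, ITGA10, ANKRD35, TXNIP and NUDT17) were followed across 6 RNA libraries. These 8 genes, of 27264 in the count table, were taken by symbol and position, and the locus was chosen by the measured difference in LIX1L between cells with and without DOX in these same libraries. The DOX values of the 8 genes are therefore given as a description without a test. The 3 libraries with DOX came from clones WT2, WT5 and WT37 of DLD-1, a human colorectal cancer cell line, and are called mesenchymal in the labels. The 3 libraries without DOX came from the same clones and are called epithelial. All 6 libraries carry ZEB2 WT in their label, and also TR21, which no source read here explains. The study followed the epithelial-to-mesenchymal transition under ZEB2, a zinc finger repressor of epithelial genes. DOX is the usual short form of doxycycline, and neither its dose nor its duration was stated in any source read here. Each clone was sequenced once per condition, and no library with DOX from cells without ZEB2 was analysed here, so an effect of DOX alone cannot be told apart from one of ZEB2.

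The segment holds genes with unrelated roles. LIX1L is a paralog of LIX1, a gene named for its expression in the limb, and its own function is poorly known. POLR3GL encodes a subunit of RNA polymerase III, the enzyme that makes transfer RNA and other short RNAs, and is the alternative to its paralog POLR3G. RBM8A encodes Y14, which with MAGOH forms the core of the exon junction complex deposited on spliced messenger RNA. PIAS3 is a ligase for the small modifier SUMO and an inhibitor of STAT3, TXNIP is an alpha-arrestin that binds thioredoxin and limits glucose uptake, and ITGA10 is the alpha subunit of a collagen-binding integrin. NUDT17 belongs to the Nudix hydrolases, and ANKRD35 is an ankyrin repeat protein of little-known function.

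Positions are from GENCODE 29 on GRCh38. LIX1L (ENSG00000271601) lies on the minus strand of chromosome 1, 145933423 to 145958001. Upstream of it, POLR3GL (ENSG00000121851, 145964702 to 145978848, plus strand) starts 6.7 kb from the LIX1L start, and TXNIP (ENSG00000265972, 145992435 to 145996600, minus strand) starts 38.6 kb from it. On the other side lie RBM8A (ENSG00000265241, 145917714 to 145927678), ITGA10 (ENSG00000143127, 145891208 to 145910189), ANKRD35 (ENSG00000198483, 145866560 to 145885866) and PIAS3 (ENSG00000131788, 145848522 to 145859836), all on the minus strand. NUDT17 (ENSG00000186364, 145845629 to 145848953, plus strand) is the farthest, with its start 112.4 kb away. ANKRD34A, which is not among the 8, lies between LIX1L and POLR3GL and is transcribed away from POLR3GL.

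The upstream sequences of the 4 genes that had enough reads to compare are shown, since these genes share a neighbourhood but not their values with DOX. They come from RefSeq on GRCh38.p14, 5' to 3' on the strand of each gene. They end at or before the RefSeq start, with untranslated bases annotated in GENCODE left out. For TXNIP, which has 2 RefSeq starts, the upstream start is used. Capitals mark CCAAT, a box bound by the factor NF-Y, or its reverse complement ATTGG. The stretch of POLR3GL (chr1:145964583-145964689, plus strand) is at the same time the stretch upstream of ANKRD34A. The others are LIX1L (chr1:145958018-145958267), RBM8A (chr1:145927537-145927734) and TXNIP (chr1:145996601-145996829), on the minus strand. The RefSeq start of RBM8A, 145927484, lies inside the GENCODE span of that gene. Part of the RBM8A stretch, with its marked box, therefore lies within that span and not upstream of it.
LIX1L: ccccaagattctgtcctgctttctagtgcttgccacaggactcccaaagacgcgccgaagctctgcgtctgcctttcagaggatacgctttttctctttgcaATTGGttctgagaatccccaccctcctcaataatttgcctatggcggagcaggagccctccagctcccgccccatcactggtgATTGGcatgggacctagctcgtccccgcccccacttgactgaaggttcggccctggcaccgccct
POLR3GL: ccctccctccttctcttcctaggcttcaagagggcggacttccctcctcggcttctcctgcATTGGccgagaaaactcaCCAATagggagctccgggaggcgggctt
RBM8A: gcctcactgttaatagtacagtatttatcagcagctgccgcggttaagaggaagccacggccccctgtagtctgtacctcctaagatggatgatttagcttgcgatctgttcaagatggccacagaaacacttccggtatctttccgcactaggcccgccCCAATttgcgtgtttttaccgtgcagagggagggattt
TXNIP: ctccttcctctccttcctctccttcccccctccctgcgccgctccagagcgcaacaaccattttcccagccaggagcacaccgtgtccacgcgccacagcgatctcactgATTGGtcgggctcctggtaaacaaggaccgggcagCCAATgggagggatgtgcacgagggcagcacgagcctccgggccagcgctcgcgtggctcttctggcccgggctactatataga

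Of the 8 genes, 6 had an entry in the promoter table (ANKRD35 and NUDT17 had none). Of these 6, 5 held CCAAT on either strand within 250 bases before the RefSeq start, PIAS3 being the exception. Both such boxes of LIX1L, POLR3GL and TXNIP are among the letters shown, and 1 of the 2 of RBM8A. Over all promoters of that length the share was 32.0% (11138 of 34788). CCAAT was chosen after the sequences had been read, so its count is a description. The motif bound by ZEB proteins, CAGGTG or its reverse complement CACCTG, was found in 0 of the 6 windows, against 17.5% of all promoters. Its core CACCT, reverse complement AGGTG, which lies inside the longer motif, was also in 0 of the 6, against 45.4%. The exact palindrome CACGTG was in 0 of the 6 as well, against 6.31%. Imperfect or paired forms of CACGTG, such as carbohydrate-response factors may bind, were not searched, so its lack at TXNIP does not cover them. A match or its lack in these windows says nothing about binding.

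The libraries held 6234798, 7072289 and 7120698 reads in genes with DOX and 5440093, 6053671 and 7164426 without DOX, in WT2, WT5 and WT37. The library kit reads transcript ends, so levels are given as CPM, a gene's reads relative to all reads in genes of the library with TMM scaling, and do not depend on gene length. Intervals of 95% on single libraries are exact and cover counting error only. All 12 epithelial markers listed for this check had reads, with a summed level of 4365 to 6065 CPM with DOX and 7240 to 9075 CPM without DOX. Of 11 measured markers of blood, vessel, stromal and other cells, 9 had reads, summing to 5.10 to 12.0 CPM with DOX and 5.41 to 10.8 CPM without DOX, and PECAM1 and COL1A2 were at 0. In such bulk RNA, fewer cells of a type and less RNA per cell cannot be told apart. ZEB2 itself had 20, 9 and 22 reads with DOX and 9, 5 and 3 without DOX in WT2, WT5 and WT37. It did not pass edgeR's quasi-likelihood test (log2 fold change 1.37 ± 0.57 SE, adjusted p = 0.781, and with the clone as block 1.38 ± 0.48, adjusted p = 0.225). Without the block 0 of 11732 genes passed. The kit reads transcript ends, so ZEB2 RNA without the annotated end of the gene would not be counted here. Whether such RNA was present was not tested.

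With DOX, LIX1L was at 4.86 to 12.0 times its level without DOX in the 3 clones, and POLR3GL, the listed gene that starts nearest to it, at 1.60 to 2.04 times. TXNIP and RBM8A did not lie on the same side in all clones, and the other 4 listed genes had too few reads to compare. The summed epithelial markers were lower with DOX, as given above, and their part in these differences was not tested. LIX1L had 60, 17 and 126 reads with DOX and 8, 3 and 10 reads without DOX in WT2, WT5 and WT37. Its level was 9.86, 2.43 and 16.5 CPM with DOX and 1.54, 0.499 and 1.37 CPM without DOX. The groups did not overlap, although WT5 with DOX (interval 1.41 to 3.88 CPM) reached down to the interval of WT2 without DOX (0.667 to 3.04 CPM). The means were 9.58 ± 7.02 CPM with DOX and 1.14 ± 0.560 CPM without DOX (SD, n = 3 each).

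Within clones, the LIX1L level with DOX was 6.38 times that without DOX in WT2 (interval 3.04 to 15.5), 4.86 times in WT5 (1.41 to 25.9) and 12.0 times in WT37 (6.33 to 25.7). The 3 intervals overlap, so the sizes cannot be ranked at this depth. On the log2 scale with 0.5 CPM added, the change was 2.34, 1.55 and 3.18, with a mean of 2.36 ± 0.82 (SD, n = 3 clones). That mean was the second highest of 11732 tested genes, given as a description because this contrast chose the locus. LIX1L passed the low-count filter only through its libraries with DOX. The edgeR estimate was 3.06 without a clone term and 3.05 with it, also given as a description. The added 0.5 CPM lowers the change of so scarce a gene, and with 0.1 CPM the mean was 2.72, with 2 CPM 1.67.

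**Figure D1:**
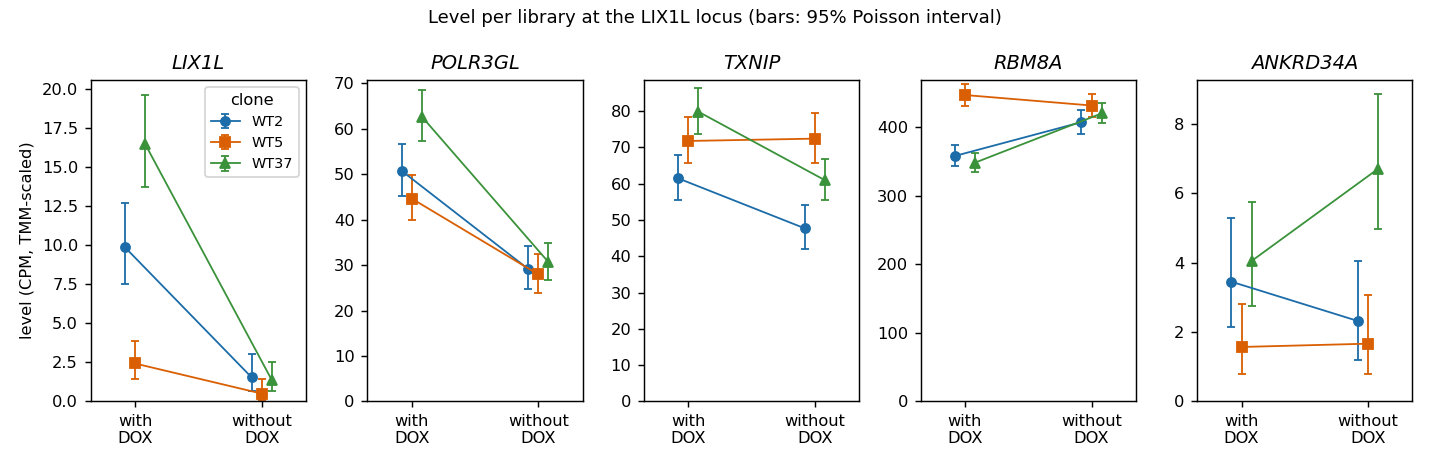
Level in CPM of LIX1L, POLR3GL, TXNIP, RBM8A and the intervening gene ANKRD34A in each library, with DOX on the left and without DOX on the right; lines join the libraries of a clone and bars are 95% Poisson intervals. LIX1L and POLR3GL are higher with DOX in all 3 clones, TXNIP in WT2 and WT37 only, and RBM8A lies between 348 and 447 CPM throughout.

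POLR3GL, whose start lies 6701 bases from that of LIX1L, had 309, 313 and 480 reads with DOX and 151, 168 and 224 reads without DOX in WT2, WT5 and WT37. Its level was 50.8, 44.7 and 62.7 CPM with DOX and 29.2, 28.0 and 30.7 CPM without DOX. The groups did not overlap, and the 3 clones lay close together without DOX. The ratio was 1.74 in WT2 (interval 1.43 to 2.13), 1.60 in WT5 (1.32 to 1.94) and 2.04 in WT37 (1.74 to 2.41). The mean log2 change was 0.83 ± 0.18 (SD, n = 3 clones), and 1.05% of tested genes (123) had one as high. For both LIX1L and POLR3GL the change was highest in WT37 and lowest in WT5. For POLR3GL the interval of WT37 also overlapped those of WT2 and WT5.

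Of the 4 listed genes that passed the low-count filter, LIX1L and POLR3GL had a change above 0 in all 3 clones, which 17.8% of tested genes did. Groups with every library with DOX above every library without DOX were seen for 5.32% of tested genes. In edgeR's test over all genes, 0 genes (0%) passed at an adjusted p of 0.05 without a clone term (709 at an unadjusted p under 0.05, and 57 adjusted with DESeq2), and 152 (1.30%) passed with the clone as block. Nothing is read from these shares for the listed genes, because the comparison served to choose them.

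TXNIP was higher with DOX in WT2 and WT37 but not in WT5. It had 61.5, 71.8 and 79.8 CPM with DOX and 47.7, 72.4 and 60.95 CPM without DOX in WT2, WT5 and WT37. The groups overlapped, with WT5 without DOX above WT2 with DOX. The ratio was 1.29 in WT2 (interval 1.09 to 1.52), 0.991 in WT5 (0.870 to 1.13) and 1.31 in WT37 (1.16 to 1.48). The mean log2 change was 0.25 ± 0.22 (SD, n = 3 clones), and 0.37 without WT5.

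RBM8A, by far the most abundant gene of the segment, had 358, 447 and 348 CPM with DOX and 407, 431 and 420 CPM without DOX in WT2, WT5 and WT37. It was lower with DOX in WT2 and WT37 and slightly above in WT5, where the interval of the ratio held 1. The ratio was 0.879 in WT2 (interval 0.828 to 0.934), 1.04 in WT5 (0.983 to 1.09) and 0.829 in WT37 (0.787 to 0.873). The mean log2 change was -0.14 ± 0.17 (SD, n = 3 clones). Its start lies 30.3 kb from that of LIX1L, on the side away from POLR3GL.

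The other 4 listed genes were too scarce for a comparison, with at most 6 reads in a library. PIAS3 had 1, 2 and 5 reads with DOX and 1, 3 and 0 without DOX in WT2, WT5 and WT37. ITGA10 had 1, 0 and 2 reads with DOX and 0, 2 and 6 without DOX. ANKRD35 had 0, 0 and 2 reads with DOX and 1, 0 and 0 without DOX. NUDT17 had 0 reads in all 6 libraries, which allows a level of up to 0.392 to 0.579 CPM per library at a limit of 3 counts. PIAS3 and NUDT17 meet tail to tail and overlap by 432 bases, and the last 300 bases of each lie wholly inside exons of the other. No source read here says whether strand was used in counting. Without it, reads of a gene and of its antisense partner cannot be told apart and may have been set aside as ambiguous. The ambiguous class held 6.86% to 7.40% of reads, and the limit for NUDT17 covers counted reads only. At this depth, 0 or few reads do not show that these genes were silent.

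The question of how far the difference extends was put to all annotated genes within 1 Mb of either end of LIX1L. Of 60 such genes, 33 were in the table, and besides the listed ones 23 had at least 1 read and 8 passed the filter. These 8 were taken by position alone and tested. By edgeR, 0 of the 8 passed (0 at an unadjusted p under 0.05 and 0 with DESeq2), against 0% of all genes without a clone term. With the clone as block, 0 of the 8 passed as well (0 unadjusted, lowest adjusted p = 0.483), against 1.30% of all genes.

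ANKRD34A, an ankyrin repeat gene that shares its upstream stretch with POLR3GL, is the nearest of them, with its start 6.6 kb from that of LIX1L. It had 3.45, 1.57 and 4.05 CPM with DOX and 2.32, 1.67 and 6.71 CPM without DOX in WT2, WT5 and WT37. Its ratio was 1.49 in WT2 (interval 0.700 to 3.32), 0.943 in WT5 (0.364 to 2.48) and 0.604 in WT37 (0.372 to 0.966), and of these only the interval of WT37 left 1 out. ANKRD34A had a log2 fold change of -0.27 ± 0.54 SE (edgeR, adjusted p = 0.990), and of 0.33 without WT37.

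LIX1L-AS1, the antisense gene that runs across LIX1L and RBM8A, had 9, 21 and 13 reads with DOX and 6, 17 and 17 reads without DOX in WT2, WT5 and WT37. Its log2 fold change was -0.05 ± 0.45 SE (edgeR, adjusted p = 0.997). The last 300 bases of LIX1L, where the kit reads, hold 0 bases of exons of other annotated genes on either strand, and the same is true of POLR3GL and TXNIP. Those of RBM8A share 103 bases with exons of another gene on the same strand, and those of LIX1L-AS1 share 98. A longer annotated unit, AC243547.3 (145927258 to 145977811, plus strand), runs across LIX1L and along POLR3GL on its own strand and was not analysed here.

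RNF115 (a ubiquitin ligase) and POLR3C (another RNA polymerase III subunit) start head to head 133.9 kb away. RNF115 had a log2 fold change of 0.03 ± 0.13 SE (edgeR, adjusted p = 0.996), and POLR3C of -0.28 ± 0.23 SE (adjusted p = 0.958), with POLR3C lower with DOX in all 3 clones, as were 17.2% of tested genes (14.6, 14.1 and 9.67 CPM with DOX, 18.9, 15.5 and 12.3 CPM without DOX).

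Farther out, GPR89A (350.0 kb) was at 0.16 ± 0.20 SE and FAM72D (862.0 kb) at -0.37 ± 0.51 SE on one side, and the variant U1 small nuclear RNA gene RNVU1-25 (451.9 kb) at -0.25 ± 0.32 SE on the other (edgeR, adjusted p = 0.979 for each). FAM72D had at most 15 reads in a library. Both FAM72D and RNVU1-25 have near-identical copies elsewhere, so their counts are uncertain. The remaining 15 genes had at most 20 reads in a library, 11 of them at most 10. Between TXNIP at 38.6 kb and RNVU1-25 at 451.9 kb, 0 genes had enough reads to be tested, so the reach of the difference on that side beyond TXNIP was not measurable.

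**Figure D2:**
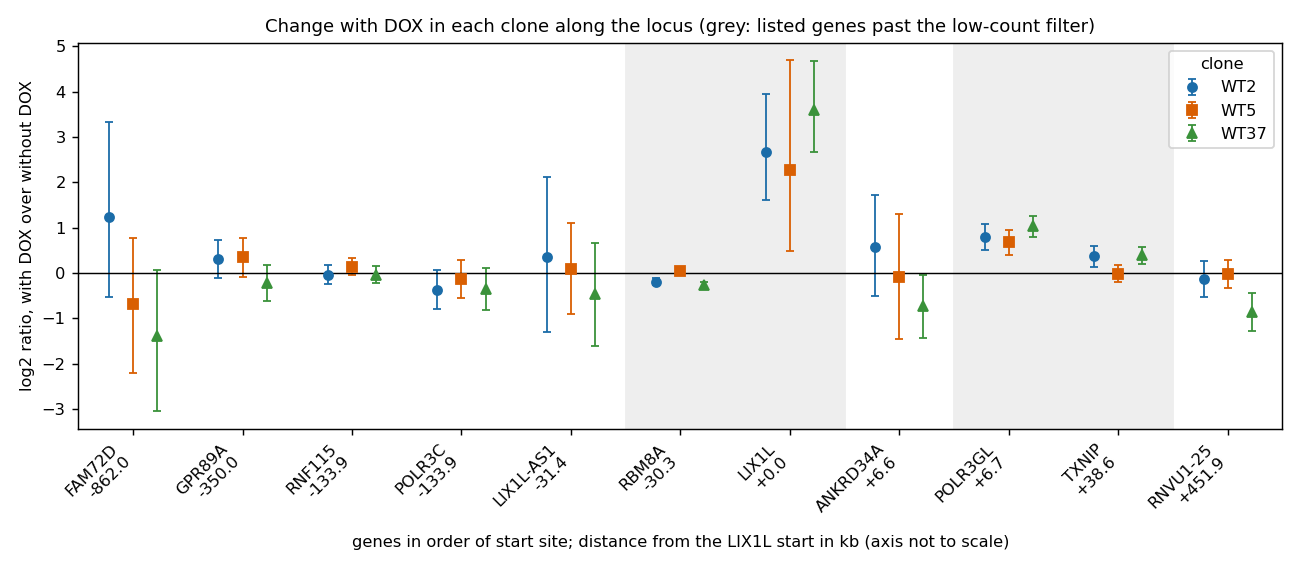
Log2 ratio of the level with DOX over that without DOX in each clone for 11 genes within 1 Mb of LIX1L that passed the filter, in order of start site, with distances in kb; bars are 95% exact intervals for counting error and grey marks the listed genes. All 3 points lie above 0 with their intervals for LIX1L and POLR3GL, and ANKRD34A, which starts between them, spreads on both sides of 0.

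**Figure D3:**
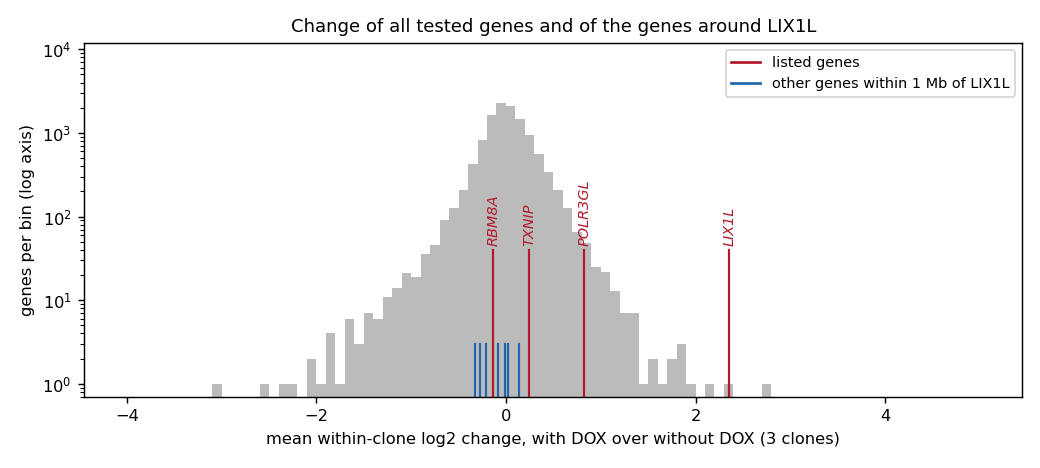
Number of genes (log axis) by mean log2 change within clones, with DOX over without DOX, for 11732 tested genes in bins of 0.1; red lines mark the 4 listed genes and short blue lines 7 other genes within 1 Mb. LIX1L lies at 2.36 and POLR3GL at 0.83, whereas these 7 lie between -0.33 and 0.14.

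Differences between the clones did not enter the choice of the locus and were tested with DOX as a covariate (edgeR, 2 libraries per clone). P-values here measure the spread between the libraries of these clones. LIX1L passed the low-count filter only through its libraries with DOX, so its values among the clones are given without a test. Its mean level over both conditions was 8.92 CPM in WT37, 1.46 CPM in WT5 and 5.70 CPM in WT2, and WT5 was the lowest clone with DOX. Without DOX WT5 was also the lowest, on 3 reads. Its interval there (0.103 to 1.46 CPM) overlapped those of WT2 (0.667 to 3.04 CPM) and WT37 (0.657 to 2.52 CPM), so that order is not resolved. The fitted log2 difference of LIX1L was 2.50 ± 0.40 SE in WT37 over WT5, 0.54 ± 0.33 SE in WT37 over WT2 and -1.96 ± 0.43 SE in WT5 over WT2. It assumes the same DOX effect in each clone and rests mostly on the libraries with DOX.

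POLR3GL (adjusted p = 0.328), RBM8A (0.367) and TXNIP (0.152) did not pass the test among clones with edgeR, which 6.84% of all genes did. TXNIP passed without WT5 (adjusted p = 0.0418), when WT37 was compared with WT2 alone. In that fit 1782 genes passed, against 802 over all clones. The mean level of TXNIP was 70.4 CPM in WT37, 72.1 CPM in WT5 and 54.6 CPM in WT2. Among the 8 other genes of the window, RNVU1-25 passed (adjusted p = 0.0400), at -0.98 ± 0.22 SE in WT37 against WT5, a contrast passed by 5.92% of all genes. That call was lost with DESeq2's likelihood ratio test (adjusted p = 0.123), without the DOX term (0.1497), without WT5 (0.127) and without WT37 (0.361). ANKRD34A missed the threshold (adjusted p = 0.0621), at 1.71 ± 0.42 SE in WT37 against WT5 (adjusted p = 0.0368 for that pair). ANKRD34A passed without WT2 (adjusted p = 0.0478, where 406 genes passed) and with no low-count filter (0.00590, where 1783 of 23630 genes passed), but not with DESeq2 (0.383). POLR3C (adjusted p = 0.157) passed without WT5 (0.0459), in the same fit with 1782 genes past the threshold.

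**Figure D4:**
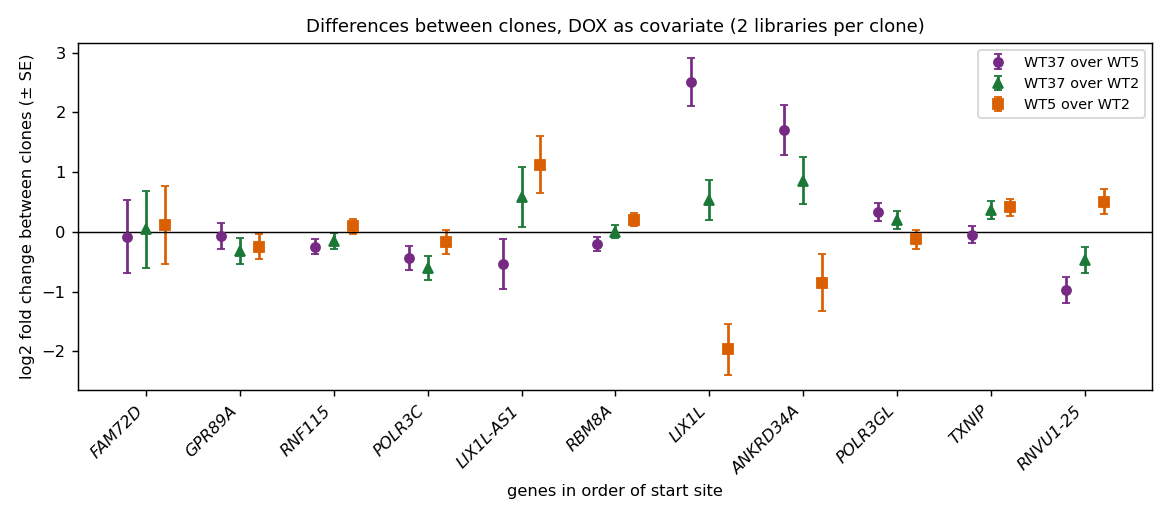
Log2 fold change (± SE) between each pair of clones, with DOX as covariate, for 11 tested genes in order of start site. LIX1L spans the widest range of these, from -1.96 in WT5 over WT2 to 2.50 in WT37 over WT5, and POLR3GL and RBM8A stay within 0.33 of 0.

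Over the 6 libraries the level of POLR3GL followed that of LIX1L with a Pearson r of 0.945 (log2 CPM), and 69 tested genes had a higher r. TXNIP had an r of 0.319 and RBM8A of -0.887. Among the 5 genes outside the window with the highest r to LIX1L were PHF1 (0.993), FGFR1 (0.989), AC135782.1 (0.986) and ITSN1 (0.985). Their differences with DOX were smaller than that of LIX1L. PHF1 averaged 9.40 ± 2.27 CPM with DOX and 6.34 ± 0.757 CPM without DOX, and FGFR1 45.97 ± 12.8 CPM with DOX and 29.4 ± 4.51 CPM without DOX (SD, n = 3 each). The points share libraries and clones, and each r takes in the difference of LIX1L with DOX that chose the locus. These values therefore only rank likeness and are not separate support for the differences with DOX.

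Genes that work with the listed ones were read from 7 lists of 99 genes, of which 88 were tested. Without a clone term 0 of the 88 passed edgeR's test (2 at an unadjusted p under 0.05, 0 adjusted with DESeq2), and with the clone as block 1 of them fell, against 0.639% of all genes. This was NUDT4, a Nudix hydrolase of inositol phosphate metabolism, which had 56.2, 59.4 and 51.1 CPM with DOX and 76.5, 81.4 and 75.3 CPM without DOX in WT2, WT5 and WT37. NUDT4 fell by 0.49 on the log2 scale (SE 0.10, adjusted p = 0.0461 in the blocked edgeR fit, against 0.447 without the block), and with the same block 0 of the 88 genes passed DESeq2's test. NUDT4 has near-identical copies, among them the pseudogene NUDT4P2 within the same 1 Mb, so its count is uncertain.

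For RNA polymerase III and its factors, 21 of 22 genes were tested and 0 passed in either direction. Their median log2 fold change was -0.15 in the blocked fit, with 5 of 21 above 0, beside a median of 0.01 over all tested genes. POLR3G, which takes the place of POLR3GL in the enzyme, had 41.1, 36.2 and 40.4 CPM with DOX and 44.6, 36.1 and 43.0 CPM without DOX in WT2, WT5 and WT37, a log2 fold change of -0.07 ± 0.14 SE (edgeR, adjusted p = 0.990). POLR3GL stood above its paralog in all 3 clones with DOX and below it in all 3 without DOX.

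For the exon junction complex and nonsense-mediated decay, 19 of 19 genes were tested, 0 passed, and the median was -0.05 in the blocked fit. Among the partners of RBM8A in the complex, MAGOH had a log2 fold change of -0.14 ± 0.13 SE (edgeR, adjusted p = 0.962), MAGOHB of -0.17 ± 0.20 (0.975), EIF4A3 of -0.14 ± 0.11 (0.952) and CASC3 of 0.11 ± 0.13 (0.975).

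For SUMO conjugation, 18 of 18 genes were tested, 0 passed and the median was 0.01. The paralogs of PIAS3 were measurable where PIAS3 was not: PIAS1 averaged 23.4 ± 1.86 CPM with DOX and 22.8 ± 0.935 CPM without DOX, PIAS2 28.5 ± 4.77 CPM with DOX and 30.2 ± 3.52 CPM without DOX, and PIAS4 33.7 ± 6.44 CPM with DOX and 36.2 ± 3.03 CPM without DOX (SD, n = 3 each). For alpha-arrestins and the thioredoxin system, 13 of 14 genes were tested, 0 passed and the median was -0.03. ARRDC3 and ARRDC4, relatives of TXNIP, had log2 fold changes of 0.19 ± 0.32 SE (edgeR, adjusted p = 0.984) and 0.03 ± 0.42 SE (adjusted p = 0.998).

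Of the other Nudix hydrolases 15 of 21 genes were tested, with a median of 0.05. Among the collagen-binding integrin subunits, ITGA2 (log2 fold change -0.27 ± 0.22 SE, edgeR, adjusted p = 0.957) and ITGB1 (-0.04 ± 0.20, adjusted p = 0.996) were tested and did not pass. ITGA1 had 8, 12 and 5 reads with DOX and 1, 1 and 2 reads without DOX in WT2, WT5 and WT37, below the filter. None of these genes passed with the clone as block except NUDT4. LIX1, the paralog of LIX1L, had at most 1 read in a library.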

How the data were processed

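Libraries of 6 RNA samples from DLD-1 were prepared with the QuantSeq FWD kit for 3' ends, per the labels' protocols. The deposited values are raw counts of reads, 1 row for each Ensembl identifier, and 4 more rows count reads assigned to no gene. Those 4 rows, left out of library sizes and tests, held 4.29% to 5.25% of reads as unmapped, 11.8% to 16.0% as multimapping, 8.72% to 11.7% as outside features and 6.86% to 7.40% as ambiguous. The submitters' processing notes name the build GRCh38 and DESeq2, and the sources read here state no aligner, counter, strand setting or annotation. Symbols were looked up by identifier, and GENCODE 29 placed 26914 of 27264 identifiers.

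Tests used edgeR 4.0.16 (robust quasi-likelihood F test, TMM, filterByExpr, 11732 genes kept, Benjamini-Hochberg adjustment over all of them, threshold 0.05) in R 4.3.3, with limma 3.58.1 and DESeq2 1.42.0 as alternatives, and were tested on simulated data. Standard errors are the log2 fold change divided by the square root of F. The fit without a clone term was the main one. The clones pair the libraries by their labels, and same-clone libraries deviated together from their group means (r = 0.489, 0.284 and 0.53 for WT2, WT5 and WT37, across genes). Replicates within a group differed by 6.43 to 20.5 times sampling noise (chi-square per degree of freedom). Nothing beyond the clone names says how the cultures were kept apart. Within-clone changes are log2 ratios of TMM-scaled CPM plus 0.5. Ratio intervals are exact binomial, and level intervals are exact Poisson.

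The members and lists were chosen with earlier results of these data known. Besides the 8 members, the genes named were all genes within 1 Mb with reads, the list members past the threshold in the blocked fit, direct partners fixed by role, the 5 genes closest to LIX1L and ZEB2. Values of 2 genes that this rule names are not reported here.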

Additional observations from a re-analysis of the deposited data

Results flagged for a closer look

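ARRDC4, a relative of TXNIP, was higher with DOX in 1 clone and lower in another, in each beyond the 95% counting interval of its ratio. It had 53 reads with DOX and 27 without DOX in WT37, a log2 change of 0.82, and 17 reads with DOX and 32 without DOX in WT5, a log2 change of -0.99, so that the clones lay 1.82 apart. WT2 was at -0.06. The difference between clones was not tested, since each clone has 1 library per condition. ARRDC4 was the 1 such gene among 29 examined. No share over all genes is given beside this count, so nothing particular to ARRDC4 is read from it. The intervals cover counting error only, whereas replicates within a group differed by 6.43 to 20.5 times sampling noise. Groups of 3 libraries are too small to look for single outlying libraries.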

How the results depend on the processing

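With DOX, 0 genes passed without the replicate block and 152 with it. The blocked count was 155 with size factors and 127 with DESeq2's test, both chosen after seeing the data, as were the blocked fits that leave out a clone, which gave 5 to 736. Without the block, no filter gave 206 and DESeq2's test 57, and leaving out a clone gave 0 to 4. The other genes within 1 Mb gave 0 calls in each of these settings, with 8 to 23 of them tested. The partner lists gave 1 call with the block (NUDT4), 1 with the block and size factors, and 0 with the block and DESeq2's test. When a clone was left out of the blocked fit they gave 0 to 3. Without WT5, 3 of 89 partner genes passed, beside 736 of 11893 genes over all. In that fit SLC2A1 (-0.53) was lower with DOX, like NUDT4, and TXNRD1 (0.44) higher. Among the clones, 802 genes passed, against 1783 with no filter, 436 with DESeq2's test, 248 without the DOX term and 129 to 1782 when a clone was left out. The number of listed genes above 0 in all clones was 2, and 3 without WT5, where TXNIP joined.

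Some log2 fold changes, none past the threshold, changed sign when a clone was left out. Their ranges were -1.01 to 0.14 for FAM72D, -0.031 to 0.060 for RNF115, -0.16 to 0.16 for LIX1L-AS1, -0.58 to 0.33 for ANKRD34A, -0.018 to 0.070 for PIAS1, -0.24 to 0.12 for PIAS2, -0.24 to 0.028 for PIAS4, -0.035 to 0.52 for ARRDC3, -0.64 to 0.54 for ARRDC4 and -0.24 to 0.092 for ITGB1. ARRDC4 was also at -0.015 with the replicate block and -0.073 with limma-voom. The cause of these differences was not tested. The pairing by clone changed no other call named here. LIX1L without DOX rests on 3 to 10 reads a library, which limits the precision of its ratio.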

Other observations

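In a fit without the low-count filter, 1783 of 23630 genes differed among the clones. They included 2 of the 15 other window genes below the filter, both of the NBPF family, mostly through WT37. Adjusted p-values of this fit are not comparable with those of the filtered fits. NBPF12 had 19 and 20 reads in WT37 (with and without DOX), 4 and 2 in WT2 and 1 and 1 in WT5 (edgeR, adjusted p = 0.000141). NBPF20 had 18 and 12 reads in WT37, 1 and 0 in WT2 and 3 and 5 in WT5 (adjusted p = 0.00391). NBPF genes have many near-identical copies, and reads mapping to several places, which are not counted, made up 12.0% and 11.8% of reads in WT37, 14.6% and 15.4% in WT2 and 16.0% and 14.7% in WT5; their part in the difference was not tested.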
